A study of Mus musculus with 19 samples.

Results

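The genes of the cytosolic ribosome were followed in mouse natural killer (NK) cells given interleukin-2 (IL-2) with or without an inhibitor of a Janus kinase. Members were chosen by symbol alone: Rpl, Rps or Rplp followed by a digit, plus Rpsa, without the Rps6k kinases and the symbols marked as pseudogenes. This gave 63 of the 19752 genes measured. Of these, 30 encode proteins of the large subunit, 21 encode proteins of the small subunit and 3 encode the stalk (Rplp0, Rplp1 and Rplp2). These 54 are called the subunit genes here. Another 8 are grouped here as paralogs (Rps27l, Rpl7l1, Rpl10l, Rpl3l, Rpl32l, Rpl39l, Rps4l and Rps23rg1). Whether each of the 8 encodes a ribosomal protein was not checked. Rps19bp1 fits the symbol rule but encodes no ribosomal subunit. A further 20 symbols of the rule, among them Rpl3, Rpl11, Rpl13a, Rpl32 and Rps27, lay only on probe sets with several symbols and could not be followed one by one.

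Ribosomal proteins bind ribosomal RNA to form the small subunit, which decodes messenger RNA, and the large subunit, which joins amino acids. Their messenger RNAs are abundant and long-lived, and most start with a run of pyrimidines (the terminal oligopyrimidine tract) through which mTOR and Larp1 control their translation more than their amount. Growth signals such as IL-2 raise ribosome production in lymphocytes, with Myc acting on ribosome assembly factors and RNA polymerase I, which makes the ribosomal RNA.

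NK cells were enriched by negative selection (EasySep) from spleens of male C57BL/6 mice aged 6 weeks and profiled on 1 Affymetrix Mouse Gene 1.0 ST array per sample. The groups were IL-2 at 250 U/ml for 8 h (4 samples) and untreated cells (3 samples, with no culture time labelled for replicate 2). Other cells received IL-2 for 8 h with a JAK1 inhibitor at 0.0625 µM (1 sample), 0.25 µM (2), 1 µM (2) or 4 µM (1), or with a JAK3 inhibitor at 0.25, 1 or 4 µM (2 samples each). Both kinases carry the signal of the IL-2 receptor, and both inhibitors are known by code names only. Nothing in the labels ties the replicates of a group to different mice or cultures, so each p-value rests on a spread between samples that may be technical.

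The deposited intensities lay on 2 scales, with log2 medians from 7.49 to 7.59 in 7 samples and from 5.70 to 5.90 in 12. Levels below are log2 intensities brought to the lower scale by a term fitted per gene (scale-adjusted), and changes are differences of these levels from 1 limma fit over all 19 samples. A gene passed the test when its p, adjusted by Benjamini-Hochberg over all 19752 genes, was under 0.05. Of 7 NK cell markers, 5 rose with IL-2 (Klrb1c, which encodes NK1.1, by 1.69 ± 0.24, SE, adjusted p = 7.59e-05), as did the IL-2 target genes Gzmb (5.19) and Cish (2.10). The cells were not pure: all 6 macrophage and monocyte markers fell (median change -1.94), as did 5 of 8 neutrophil, 2 of 7 B cell and 2 of 6 dendritic cell markers, against 0 of 8 T cell and 0 of 4 erythroid markers (limma; 1 of each list at an unadjusted p under 0.05). The summed level of the macrophage markers was 10.46 to 10.83 in IL-2 samples and 12.46 to 12.61 in untreated samples (log2). In such bulk samples, fewer cells of a type and less RNA per cell cannot be told apart.

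The DNA around the starts of a few of these genes shows where a pyrimidine tract would lie. The windows below run from 40 bases before to 25 bases after the annotated start (RefSeq, GRCm38.p6), with capitals for the longest run of C and T counted within 5 bases before to 25 after the start. Rps27l, Rpl12, Rpl7l1 and Rps18 are shown because each passed a test below, and Rps6 and Rplp2 are examples of the many subunit genes that passed none. The run lengths of these picked genes do not compare genes that passed with genes that did not.
Rps27l, the more upstream of 2 starts with a promoter window, chr9:66946046-66946110, plus strand: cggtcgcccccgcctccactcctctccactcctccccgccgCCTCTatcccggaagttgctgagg
Rpl7l1, chr17:46782632-46782696, minus strand: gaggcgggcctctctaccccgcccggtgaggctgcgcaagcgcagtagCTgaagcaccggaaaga
Rpl12, chr2:32961672-32961736, plus strand: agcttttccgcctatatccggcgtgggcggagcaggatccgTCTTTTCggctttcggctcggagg
Rps18, chr17:33955641-33955705, minus strand: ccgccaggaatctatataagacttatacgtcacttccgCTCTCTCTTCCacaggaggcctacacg
Rps6, chr4:86857343-86857407, minus strand: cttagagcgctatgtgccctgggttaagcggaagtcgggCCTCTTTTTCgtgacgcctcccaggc
Rplp2, chr7:141447611-141447675, plus strand: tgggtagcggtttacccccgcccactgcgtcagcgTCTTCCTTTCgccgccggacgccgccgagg
The run is 11 bases long in Rps18, 10 in Rps6 and in Rplp2 and 7 in Rpl12. It is 5 bases long in Rps27l and 2 in Rpl7l1. A longer run in the Rps27l window ends before its start and is cut off by the counted stretch, and the annotated Rps27l gene begins further upstream than either start. Among the windows of subunit genes, 14 of 50 (28.0%, from 43 of the 54 genes) held at least 8 bases of C or T in a row on the transcribed strand between 5 bases before and 25 after the start, against 10.3% of all 32851 windows. The ETS-type motif CCGGAAG, read on both strands over 300 bases, was in 18 of 50 (36.0%) against 8.86% of all windows, and the E-box CACGTG in 7 of 50 (14.0%) against 7.15%. Neither motif holds the other. These are matches of letters, not measured binding.

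With IL-2, 3 of the 63 genes rose and 0 fell (limma), against 6.56% of all genes that rose and 2.59% that fell. At an unadjusted p under 0.05, 4 members were higher and 0 lower, against 12.7% and 6.4% of all genes. The 3 were the paralogs Rps27l and Rpl7l1 and the large subunit gene Rpl12. Among subunit genes the median change was -0.02, with a range from -0.25 to 0.75, against a median of -0.01 over all genes. The interval of the change (95%) lay within 1 log2 unit of 0 for 53 of 54 subunit genes and within 0.5 for 44. Over all genes, 18594 of 19752 intervals lay within 1 and 12456 within 0.5. The subunit genes' median was -0.11 after quantile normalization and 0.01 after median centring, so it has no settled sign. All IL-2 samples were above all untreated samples for 5 members and below them for 0, against 10.4% and 4.8% of all genes.

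Rps27l, a paralog of Rps27 that p53 induces and whose protein binds Mdm2, was at 7.85, 8.61, 8.49 and 8.62 in IL-2 samples and at 7.84, 7.81 and 7.22 in untreated samples. The groups did not overlap, though IL-2 replicate 1 (7.85) and untreated replicate 2 (7.84) nearly met. The change was 0.77 ± 0.20 (SE, adjusted p = 0.0173, limma), and it lost the call without untreated replicate 4 (0.57, adjusted p = 0.139) or without IL-2 replicate 2, 3 or 4 (adjusted p from 0.0588 to 0.0868). After quantile normalization it was 0.59 (adjusted p = 0.0545).
Rpl12, at the base of the stalk where translation factors bind, was at 7.21, 7.59, 7.46 and 7.67 in IL-2 samples and at 6.95, 6.51 and 6.74 in untreated samples. All IL-2 samples were above all untreated ones. The change was 0.75 ± 0.19 (SE, adjusted p = 0.0139, limma), with adjusted p = 0.0669 without untreated replicate 3 and 0.0673 without IL-2 replicate 4.
Rpl7l1, a paralog of Rpl7, was at 9.37, 9.30, 9.47 and 9.35 in IL-2 samples and at 9.07, 8.59 and 8.92 in untreated samples. The IL-2 samples stood close together and above every untreated one. The change was 0.51 ± 0.13 (SE, adjusted p = 0.0139, limma), with adjusted p = 0.0732 without IL-2 replicate 3. Each of these genes has 1 probe set on the array that carries its symbol alone. In RefSeq, Rps27l lies at chr9:66944624-66949522, Rpl12 at chr2:32961712-32964045 and Rpl7l1 at chr17:46773907-46782656 (GRCm38.p6). Fitted on the IL-2 and untreated samples only, Rps27l (adjusted p = 0.0676) and Rpl7l1 (0.0989) missed the threshold while Rpl12 passed it.

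**Figure D1:**
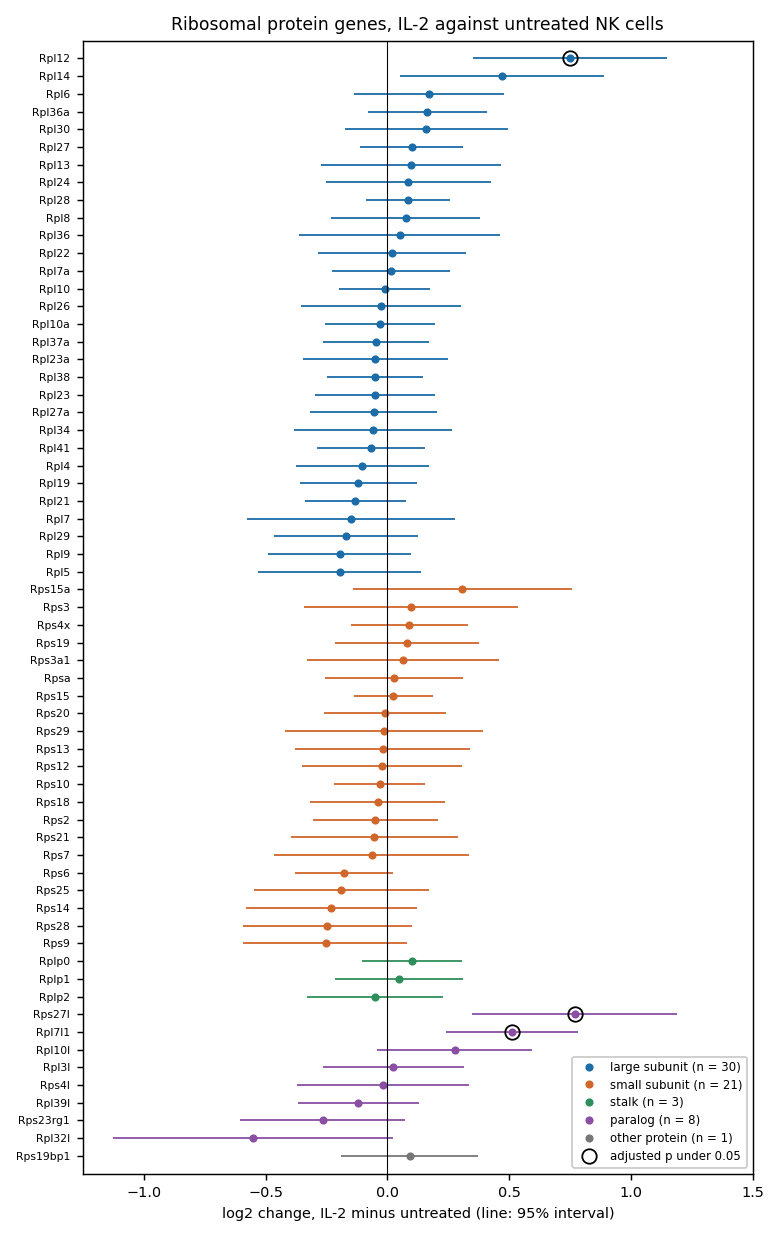
Log2 change of each of the 63 genes, IL-2 minus untreated, with its 95% interval from limma, ordered by subunit. The circled genes Rpl12, Rps27l and Rpl7l1 passed the test, and the subunit genes lie between -0.25 and 0.75 around a median of -0.02.

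Among the large subunit genes, 1 of 30 passed the test, and Rpl14, named after its values were seen, had the second largest estimate (0.47 ± 0.20, SE, adjusted p = 0.191, limma). Rpl5, which carries 5S ribosomal RNA and can bind Mdm2, had a change of -0.20 ± 0.16. Rpl10, which is added late in the making of the large subunit, had one of -0.01 ± 0.09. Rpl22, which mouse T cells need in their development, had one of 0.02 ± 0.15. Rpl28, with the brightest probe set of the family, was between 12.32 and 12.36 in IL-2 samples and between 12.19 and 12.30 in untreated samples, a change of 0.09 ± 0.08.

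None of the 21 small subunit genes passed the test (limma; 0 at an unadjusted p under 0.05). Rps6, the target of the S6 kinases, was at 12.12, 11.99, 12.08 and 11.98 in IL-2 samples and at 12.10, 12.36 and 12.21 in untreated samples. Its groups overlapped, and the change was -0.18 ± 0.10 (SE, adjusted p = 0.346). Rps3 (0.10 ± 0.21), Rps19, mutated in Diamond-Blackfan anaemia in humans (0.08 ± 0.14), Rps15 (0.02 ± 0.08) and Rpsa, also known as the laminin receptor precursor (0.03 ± 0.14), had estimates near 0 (log2 changes with SE). The 3 stalk genes, whose proteins recruit the elongation factors, had changes of 0.10 ± 0.10 for Rplp0, 0.05 ± 0.13 for Rplp1 and -0.05 ± 0.13 for Rplp2.

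The other paralogs did not pass the test with IL-2. Rpl3l, a muscle form of Rpl3 in mice, and Rpl39l and Rpl10l, forms of the testis in mice, had the dimmest probe sets of the family. Their changes were 0.02 ± 0.14, -0.12 ± 0.12 and 0.28 ± 0.15. Rps4l (-0.02 ± 0.17), Rps23rg1 (-0.27 ± 0.16) and Rpl32l (-0.55 ± 0.28) also missed the threshold, as did Rps19bp1 (0.09 ± 0.13), which binds the Rps19 protein (log2 changes with SE). Of the ribosomal proteins under other symbols, only Fau could be matched (1 of 4), and its change was -0.13 ± 0.13.

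Brightness and copy number may bear on these values. Of the 63 probe sets used, 43 were among the 5% brightest of all genes, which ranks probe sets and not amounts of RNA. The median size of the change with IL-2 was 0.07 for the 42 subunit genes in that range and 0.07 for the other 12. Against IL-2 alone, the brighter genes had the smaller median size at every inhibitor dose. It was 0.21 and 0.39 for the 2 sets at 0.25 µM of the JAK1 inhibitor, and 0.04 and 0.11 at 0.25 µM of the JAK3 inhibitor. The part of brightness in these sizes was not tested. Members were read by 207 probe sets in all, and 25 of the 38 members with several had all of them on the same side of 0 for IL-2 against untreated. Ribosomal protein genes have many near-identical processed pseudogenes, and the probe sets may not tell the copies apart. The 222 probe sets that carry a symbol of the rule beside another symbol gave 0 calls with IL-2 (limma) and a median change of -0.06.

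Genes that build ribosomes rose in the same samples. Of 43 assembly factors, 37 rose and 0 fell, with a median change of 0.86. Examples are Rrp1b (1.53 ± 0.15, SE, adjusted p = 8.58e-07), the pseudouridine synthase Dkc1 (1.52 ± 0.17), the small subunit factor Bysl (1.40 ± 0.16) and the nucleolar GTPase gene Gnl3 (1.41 ± 0.17). Of 14 genes of RNA polymerase I and its factors, 4 rose (Polr1b by 1.63, Rrn3 by 0.75, Polr1a by 0.71 and Polr1e by 0.63), and the list's median was 0.37. Of 77 mitochondrial ribosomal protein genes, 17 rose and 0 fell, with a median of 0.35 (Mrpl19 by 0.84, Mrpl23 by 0.81, Mrpl16 by 0.76 and Mrpl3 by 0.53). Of 13 other translation genes whose messages start with the same pyrimidine tract, 1 rose (the nucleolar protein gene Npm1 by 0.52 ± 0.14, SE, adjusted p = 0.0213, limma), and their median was 0.04. Among 11 genes that control ribosomal protein messages, 3 rose: Myc by 2.32, Larp1, which binds the pyrimidine tract, by 1.22, and the Myc partner Max by 0.77.

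**Figure D2:**
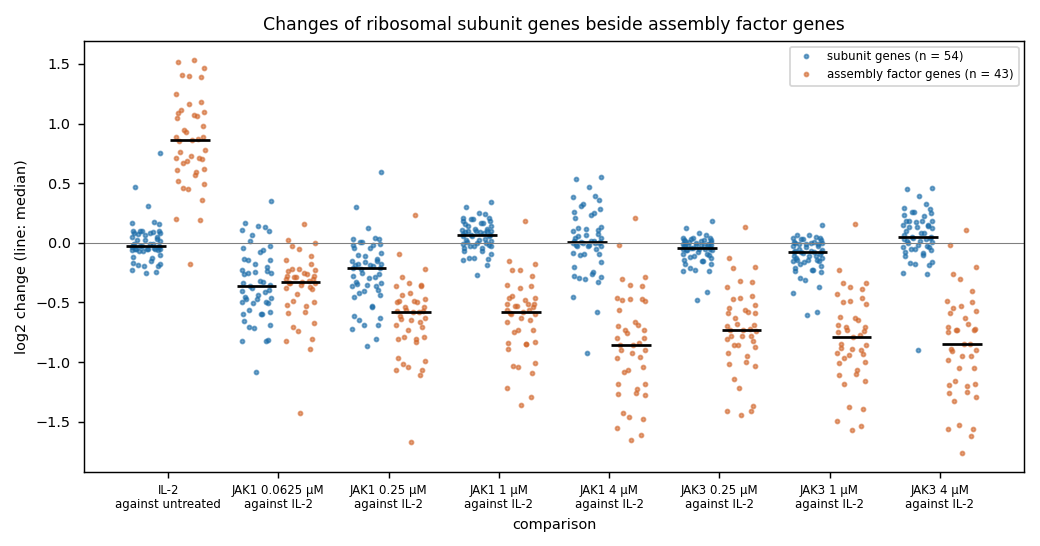
Log2 change of the 54 subunit genes and of 43 assembly factor genes in each comparison, with the median as a line; the JAK1 and JAK3 comparisons share the IL-2 samples. Subunit medians run from -0.36 to 0.07, while assembly factor medians are 0.86 for IL-2 against untreated and from -0.33 to -0.86 for the inhibitors against IL-2.

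With the JAK3 inhibitor, Rps27l was lower than with IL-2 alone at each dose. Of the 54 subunit genes, 0, 0 and 1 passed the test at 0.25, 1 and 4 µM (limma). In a fit of the members' probe sets beside all genes, 1 of the 5 probe sets of Rps4x rose at 4 µM. Its change was 0.46 ± 0.13 (SE, adjusted p = 0.035, limma). The brightest probe set, which stands for Rps4x, did not pass, and the gene was named after its values were seen. The inhibitor comparisons share the 4 IL-2 samples. At 0.25 µM, 1 of 63 members passed the test (5% of all genes). At 1 µM it was 1 (6.55% of all genes), and at 4 µM it was 2 (7.51% of all genes). Median changes of the subunit genes were -0.04, -0.08 and 0.05 at 0.25, 1 and 4 µM. Over all genes they were 0.06, 0.02 and -0.04. Fewer members than the background share passed at each dose, while 26, 30 and 32 of the 43 assembly factors fell. The interval of the change lay within 1 log2 unit of 0 for 54, 52 and 53 of the subunit genes. In the same samples all 6 macrophage and monocyte markers rose at each dose, with sums of 12.33 to 12.75 against 10.46 to 10.83 with IL-2 alone, and 6, 6 and 3 of 7 NK markers fell. At 0.25, 1 and 4 µM, 3, 4 and 3 of 8 neutrophil markers, 2, 2 and 2 of 6 dendritic cell markers and 3, 0 and 1 of 7 B cell markers rose. T cell marker sums were 10.52 and 10.69, 10.43 and 10.48, and 9.59 and 10.58 at these doses, against 10.26 to 10.37 with IL-2 alone. Their part in the results was not tested.

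Rps27l was at 7.67 and 7.31 at 0.25 µM, at 7.16 and 7.72 at 1 µM and at 7.52 and 7.62 at 4 µM of the JAK3 inhibitor, all below the 4 IL-2 samples (7.85 to 8.62). Its change was -0.90 ± 0.23 at 0.25 µM, -0.96 ± 0.23 at 1 µM and -0.82 ± 0.24 at 4 µM (SE, adjusted p = 0.0216, 0.0112 and 0.0372, limma). The call was lost without either sample of 0.25 µM (adjusted p = 0.0854 and 0.561), of 4 µM (0.135 and 0.0801), or without replicate 1 at 1 µM (0.438). It was lost at 0.25 and 4 µM without IL-2 replicate 2, 3 or 4 (adjusted p from 0.0659 to 0.146), and at 4 µM after median centring (-0.80, adjusted p = 0.0858).
Rpl12 was at 6.87 and 7.27 at 0.25 µM, at 7.02 and 6.78 at 1 µM and at 6.10 and 7.07 at 4 µM, against 7.21 to 7.67 in IL-2 samples. At 0.25 µM the samples overlapped with IL-2, and at the higher doses they did not. The sample at 6.10 was replicate 1 of 4 µM, with an array 75th percentile of 6.94, against 7.3 in replicate 2. Its T cell and neutrophil marker sums were 9.59 and 11.64, against 10.58 and 12.36 in replicate 2. Their part in this level was not tested. The change was -0.41 ± 0.21 at 0.25 µM, -0.58 ± 0.21 at 1 µM and -0.90 ± 0.22 at 4 µM (SE). It passed the test at 4 µM (adjusted p = 0.0147, limma), where the sample at 6.10 carried it: without it the change was -0.41 (adjusted p = 0.287), and without IL-2 replicate 4 it was -0.81 (0.0688).
Rpl7l1 was at 9.15 and 9.19, at 9.15 and 9.07 and at 8.98 and 9.01 at the 3 doses, below all IL-2 samples (9.30 to 9.47). Its changes of -0.20 ± 0.15, -0.26 ± 0.15 and -0.37 ± 0.15 did not pass the test (SE, adjusted p = 0.737, 0.513 and 0.170, limma).

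**Figure D3:**
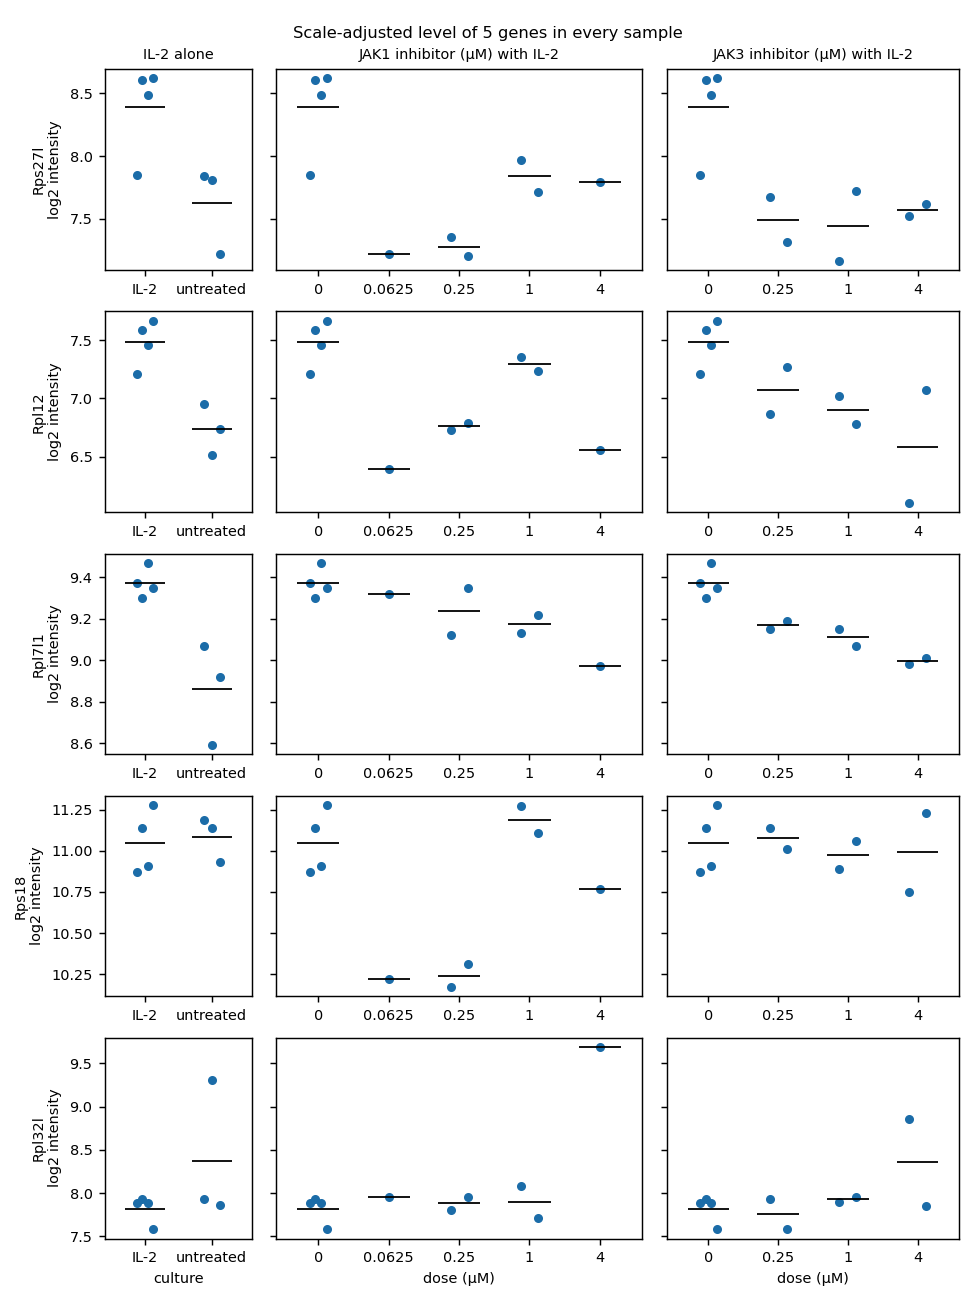
Scale-adjusted log2 intensity of Rps27l, Rpl12, Rpl7l1, Rps18 and Rpl32l in every sample (points) with the group mean (lines); the 4 IL-2 samples are drawn in each panel, as dose 0 beside the inhibitors. Rps18 is at 10.17 to 10.31 in the 3 samples of the 2 lowest JAK1 inhibitor doses, and Rpl32l is at 8.86, 9.31 and 9.69 in 3 samples of 3 groups.

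With the JAK1 inhibitor, 1 of the 54 subunit genes fell at 0.25 µM and 0 at the other doses (limma). At an unadjusted p under 0.05 it was 21 at 0.25 µM and 0 at 1 µM, in either direction. Most estimates at the 2 lowest doses were below 0. At 0.25 µM, 2 of 63 members fell, Rps27l and the small subunit gene Rps18, and 0 rose (limma), against 1.52% and 0.729% of all genes. At an unadjusted p under 0.05, 20 members were lower and 2 higher, against 7.06% lower and 5.16% higher over all genes. Both samples lay below all 4 IL-2 samples for 28 of 63 members and above them for 3, against 11.5% and 17.7% of all genes. The median change of the 54 subunit genes was -0.21, with 46 below 0, and that of all genes was 0.05. It was -0.16 after quantile normalization and -0.27 after median centring, -0.25 within the lower scale and -0.17 within the higher one; not every alternative left it this far from 0. Leaving out 1 sample at a time gave -0.29 to -0.18.

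At 0.0625 µM, in 1 sample assumed to vary like the others, 0 members passed the test (limma, 0.0203% of all genes), and 18 were lower and 0 higher at an unadjusted p under 0.05. The share over all genes was 3.67% lower and 8.59% higher. The subunit genes' median change was -0.36, against 0.08 over all genes, and was -0.23 after quantile normalization and -0.47 after median centring. Not every alternative kept its sign. At 1 µM 0 members passed (limma, 5.16% of all genes; 1 at an unadjusted p under 0.05, against 13.9% of all genes), with a subunit median of 0.07 that became -0.02 after median centring. At 4 µM, also 1 sample, 1 member passed (3.77% of all genes), with a subunit median of 0.01.

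The median level of the subunit genes in each sample was 9.99, 10.09, 10.04 and 10.14 with IL-2 alone. It was 9.71 with 0.0625 µM of the JAK1 inhibitor, 9.83 and 9.82 with 0.25 µM, 10.14 and 9.97 with 1 µM and 10.19 with 4 µM. In samples with the JAK3 inhibitor it was between 9.96 and 10.24, and in untreated samples it was 10.13, 10.30 and 9.97. The 3 samples of the low JAK1 doses thus had the lowest medians of all 19, and they came from both intensity scales. The median of all genes was 5.75 to 5.83 in the 3, against 5.65 to 5.87 in the others. Every sample with an all-gene median above 5.75 had a subunit median of 9.99 or lower, and every one below 5.75 had 10.04 or higher. The 25th and 75th percentiles of the array were 4.93 and 7.03 at 0.0625 µM. At 0.25 µM they were 4.85 and 7.03 in replicate 1, and 4.76 and 7.11 in replicate 2. In the others they ran from 4.60 to 4.90 and from 6.79 to 7.30. The part of this spread in the subunit medians was not tested.

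**Figure D4:**
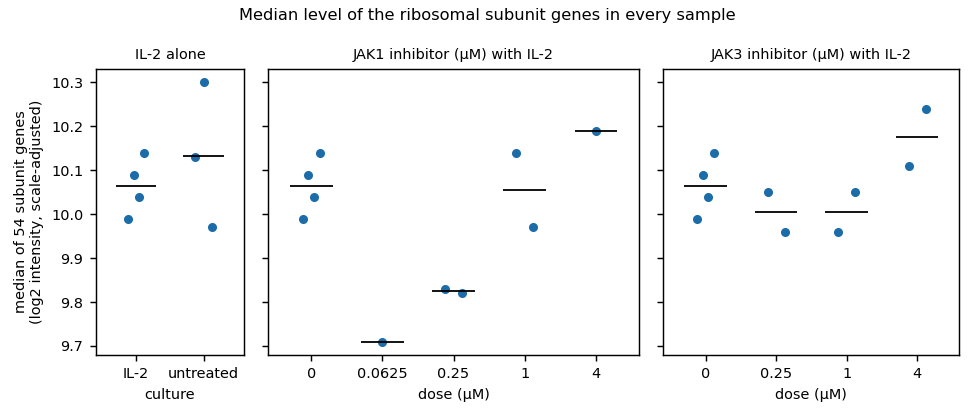
Median scale-adjusted log2 intensity of the 54 subunit genes in every sample (points) with the group mean (lines); the 4 IL-2 samples appear in each panel. The samples with 0.0625 and 0.25 µM of the JAK1 inhibitor sit between 9.71 and 9.83, below the 16 other samples at 9.96 to 10.30.

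Rps18, a protein of the small subunit's head, was at 10.22 at 0.0625 µM, at 10.17 and 10.31 at 0.25 µM, at 11.27 and 11.11 at 1 µM and at 10.77 at 4 µM of the JAK1 inhibitor, against 10.87, 11.14, 10.91 and 11.28 with IL-2 alone. The low-dose samples stood well below every other sample. The change was -0.81 ± 0.15 at 0.25 µM (SE, adjusted p = 0.00491, limma), -0.83 ± 0.20 at 0.0625 µM (0.187) and 0.14 ± 0.15 at 1 µM (0.787). At 4 µM it was -0.28 ± 0.20 (0.555). All 7 probe sets of Rps18 had changes of -0.76 to -0.85 at 0.25 µM. Each passed the test in a fit of the members' probe sets beside all genes. The call on the brightest was lost without either 0.25 µM sample (-0.73, adjusted p = 0.148, and -0.89, adjusted p = 0.0967), and the estimates within the lower and the higher scale were -0.78 and -0.84 (adjusted p = 0.493 and 0.899).

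Rps27l was at 7.22 at 0.0625 µM, at 7.35 and 7.20 at 0.25 µM, at 7.97 and 7.71 at 1 µM and at 7.79 at 4 µM of the JAK1 inhibitor. Only at 1 µM did the samples overlap with IL-2 alone. It fell at 0.25 µM by 1.12 ± 0.23 (SE, adjusted p = 0.0098, limma), a call lost without either sample of that dose (adjusted p = 0.102 and 0.259). The change was -1.17 ± 0.30 at 0.0625 µM, -0.55 ± 0.23 at 1 µM and -0.60 ± 0.30 at 4 µM, none past the threshold (adjusted p = 0.227, 0.233 and 0.353).
Rpl12 was at 6.39 at 0.0625 µM, at 6.73 and 6.79 at 0.25 µM, at 7.36 and 7.24 at 1 µM and at 6.56 at 4 µM, with changes of -1.09, -0.72, -0.19 and -0.93. None passed the test (adjusted p = 0.227, 0.0941, 0.806 and 0.0812, limma), though 0.25 and 4 µM did after quantile normalization (adjusted p = 0.0171 and 0.0282).
Rps3, whose protein also takes part in DNA repair, was at 8.86 and 8.99 at 0.25 µM and at 9.15, 9.81, 9.49 and 10.01 with IL-2 alone, a change of -0.69 ± 0.24 (SE, adjusted p = 0.172, limma). Rpl5 was at 9.15 and 9.22 at 0.25 µM and at 9.66, 9.82, 9.81 and 9.96 with IL-2 alone, a change of -0.63 ± 0.18 (adjusted p = 0.0803). Neither gene's groups overlapped, and neither passed the test.

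Not all subunit genes had estimates below 0 at 0.25 µM. Rpl29 and Rpl37a, named after their values were seen, were the 2 higher ones at an unadjusted p under 0.05. Rpl29 was at 10.45 and 10.59 at 0.25 µM, against 9.71 to 10.07 with IL-2 alone (0.60 ± 0.16, SE, adjusted p = 0.0528, limma). Rps15 was at 12.18 and 12.14, against 12.03 to 12.04, on its brightest probe set (0.13 ± 0.09, adjusted p = 0.645), while its 2 dimmer probe sets rose by 0.44 and 0.51 (adjusted p = 0.0128 and 0.0126). Of the 222 probe sets shared with other symbols, 14 fell and 0 rose at this dose (6.31%), and 0 passed in any other comparison with IL-2 or untreated cells (limma). The assembly factors fell for 0, 14, 18 and 23 of 43 genes at 0.0625, 0.25, 1 and 4 µM.

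Markers of other cells also differed from IL-2 alone at the low doses of the JAK1 inhibitor. At 0.25 µM, 4 of 6 macrophage and monocyte markers rose, with summed levels of 11.72 and 11.80 against 10.46 to 10.83 with IL-2 alone (log2). Of the neutrophil markers 1 of 8 rose, with sums of 11.94 and 11.95 against 11.53 to 11.59, and of the dendritic cell markers 1 of 6 rose, with sums of 9.76 to 9.89 against 8.98 to 9.12. B cell markers had 0 of 7 past the test (limma; 1 at an unadjusted p under 0.05), with sums of 12.65 to 12.73 against 12.46 to 12.60. NK markers had 0 of 7 past the test (limma; 0 at an unadjusted p under 0.05), with sums of 11.66 and 11.82 against 11.62 to 11.99. At 0.0625 µM the sums were 11.24 for macrophage, 11.63 for neutrophil, 9.42 for dendritic cell, 12.56 for B cell and 11.81 for NK markers, and none of these lists had a marker past the test (limma; 3, 1, 1, 0 and 0 at an unadjusted p under 0.05). The macrophage sums were 12.38 and 12.58 at 1 µM and 12.53 at 4 µM, where all 6 markers rose. T cell marker sums were 10.50 at 0.0625 µM and 10.45 and 10.70 at 0.25 µM, against 10.26 to 10.37 with IL-2 alone. The part of these cells in the results was not tested.

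The inhibitors were compared directly at the 3 doses they share, with adjustment over all genes of each comparison. At 0.25 µM, 1 of 63 members differed: Rps18, at 10.17 and 10.31 with the JAK1 inhibitor and at 11.14 and 11.01 with the JAK3 inhibitor (0.451% of all genes). The difference was -0.83 ± 0.17 (SE, adjusted p = 0.0332, limma), JAK1 minus JAK3 inhibitor. The call was lost without any 1 of these 4 samples (adjusted p from 0.168 to 0.452) and after median centring (-0.81, adjusted p = 0.111) or with the mean of its probe sets (-0.80, 0.0781). The subunit genes' median difference was -0.17, against -0.02 over all genes.
At 1 µM 0 members and 0 of all genes (0%) differed, with 3 members at an unadjusted p under 0.05, all higher with the JAK1 inhibitor, against 0.845% of all genes (limma). At 4 µM it was again 0 of both (0%), with 1 member at an unadjusted p under 0.05, against 2.69% of all genes. The intervals of the difference lay within 1 log2 unit of 0 for 60 of 63 members at 1 µM and for 60 at 4 µM, and within 0.5 for 26 and 17. Rps27l differed by -0.22 at 0.25 µM (interval -0.77 to 0.33), 0.40 at 1 µM (-0.15 to 0.95) and 0.22 at 4 µM (-0.45 to 0.89).

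Rpl32l was the member with the largest single change, in 1 sample. It was at 9.69 with 4 µM of the JAK1 inhibitor, against 7.88, 7.93, 7.88 and 7.58 with IL-2 alone (1.88 ± 0.41, SE, adjusted p = 0.0098, limma). It was also at 8.86 in replicate 1 of 4 µM JAK3 inhibitor, with replicate 2 at 7.85, and at 9.31 in untreated replicate 3, with the other untreated samples at 7.93 and 7.86. In the remaining samples it was between 7.58 and 8.08. Its level thus split the samples of the untreated group and of 4 µM JAK3 inhibitor. With 4 µM of the JAK1 inhibitor there was 1 sample, so sample and group cannot be told apart. The 75th percentile of the arrays was 7.03, 6.94 and 6.79 in these 3 samples in the order given, and 7.0 to 7.30 in the others, and the part of that spread in the result was not tested.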

How the data were processed

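Per the submitters' processing notes, the authors made the deposited intensity values with Affymetrix Power Tools and RMA; versions and settings, and which arrays were processed together, are not given in the sources used here. This table holds 24922 probe sets for 19 samples on a linear scale, turned here into log2. Probe sets with 1 symbol in GEO's platform annotation (21425) were kept, and the brightest mean stood for a gene. All 63 members matched RefSeq symbols (GRCm38.p6), and 0 were updated. Groups were taken from the titles.

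limma 3.58.1 (R 4.3.3; lmFit, eBayes with trend) was fitted with a mean per group and a term for the scale set (7 and 12 samples), with 9 residual and 10.5 prior degrees of freedom, and Benjamini-Hochberg adjustment over 19752 genes at 0.05. For a group with a lone sample, its variance was taken to equal that of the other groups. The number of arrays limits the precision, and no background or detection values were used. Promoters are RefSeq windows.

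The members and lists were chosen with earlier results of these data known. Genes named are the members past the threshold, every measured paralog, a fixed set of well-known members, the 3 brightest and 3 dimmest, and up to 4 genes of other lists with the smallest p; those outside this are marked. Rpl32l and Rps23rg1 were put among the paralogs after the annotation was seen. Alternatives were other normalizations, scale terms, sample sets, probe set rules, a filter on dim genes, a replicate block and leaving out samples. Python 3.11.15, pandas 2.3.3, numpy 2.4.6 and matplotlib 3.10.9 were used as well.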

Additional observations from a re-analysis of the deposited data

Results flagged for a closer look

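The level of Rpl32l in 1 of the 4 IL-2 samples (7.58, with the others at 7.88 to 7.93) stood apart from the rest of its group: its gap to the nearest sample was 0.863 of the group's range, above Dixon's 95% critical value for 4 samples. Chance flags about 5% of groups. Rps18 differed between the inhibitors at 0.25 µM, with a difference of -0.83 on the log2 scale (JAK1 minus JAK3 inhibitor, limma adjusted p = 0.0332).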

How the results depend on the processing

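Counts of members past the threshold moved with several choices. Without the scale term the count was 0 in all comparisons (0 to 23). Fitting 1 scale alone gave 1 for IL-2 against untreated in the lower scale and 0 elsewhere, where a fit was possible; the higher scale holds no sample of JAK3 inhibitor 4 µM or JAK1 inhibitor 0.0625 and 4 µM. In the lower scale, 962 of all genes passed for IL-2 against untreated. Fitting only the compared groups gave 1 for IL-2 against untreated (1212), 4 for JAK3 inhibitor 1 µM (2582) and 1 for 4 µM (1073). For JAK1 inhibitor 0.0625, 0.25, 1 and 4 µM it gave 4, 15, 1 and 3 (351, 1770, 2092 and 1744). For JAK1 against JAK3 inhibitor at 0.25 and 1 µM it gave 7 and 3 (1114 and 84). Quantile normalization gave 2 and 6 for JAK3 inhibitor 1 and 4 µM (2163 and 2588). It gave 5 and 2 for JAK1 inhibitor 0.25 and 4 µM (1202 and 1395). Median centring gave 1 for JAK3 inhibitor 4 µM (1466) and 0 for JAK1 against JAK3 inhibitor at 0.25 µM (33), as did the mean of probe sets (85 at 0.25 µM). Leaving out dim genes gave 4 for JAK1 inhibitor 0.25 µM (507 of 14814). The cause was not tested. No direction of a named gene's call reversed under any of these settings. Leaving out single samples also moved the counts over all genes, to between 1210 and 3069 for IL-2 against untreated. Without 1 IL-2 sample they were 211 to 723 for JAK1 inhibitor 0.25 µM.

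Leaving out 1 sample at a time gave 1 to 4 members for IL-2 against untreated, 0 to 1 for JAK3 inhibitor 0.25 and 1 µM and for JAK1 inhibitor 1 µM, 0 to 2 for JAK3 inhibitor 4 µM, 0 to 6 for JAK1 inhibitor 0.25 µM, 1 for 4 µM and 0 for the rest.

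Whether replicate numbers pair the samples could not be decided. Of 51 pairs of samples with the same number, 16 had deviations from the fit that correlated over 0.1 (range -0.54 to 0.698). Pairs with different numbers were not compared. A sample alone in its group has no deviation from the fit, so its pairs carry no information. Some values also repeat: JAK3 inhibitor 0.25 and 1 µM gave -0.217 under both replicate numbers. With the number as a replicate block, 5 members passed for IL-2 against untreated, where 3233 of 19752 genes did. For JAK3 inhibitor 0.25, 1 and 4 µM it was 0, 0 and 1 (726, 849 and 577 of all genes). It was 0 for JAK1 inhibitor 0.25 µM (134) and 3 for JAK1 against JAK3 inhibitor at 0.25 µM (348). The subunit genes' median was then -0.06 for JAK1 inhibitor 0.25 µM (33 of 54 below 0). For 0.0625 µM its sign turned, to 0.14 (17 of 54 below 0).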
